A study of Homo sapiens with 6 samples.

Results

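The genes described here are 7 metallothionein genes (MT1A, MT1E, MT1F, MT1G, MT1M, MT1X and MT2A), MTF1, which encodes the metal-responsive transcription factor, and SLC30A1, which encodes the zinc exporter that this factor induces. They were chosen by function, as rows of the expression table that carry these gene names, and make up 9 of its 60671 genes. The rule uses no measured value, but the genes were chosen with earlier results of these data known. The RNA-Seq experiment compared U87 cells, an established human glioblastoma line, after 48 h of 100 μM rutaecarpine (n = 3 libraries) with cells kept for the same 48 h in the solvent, 0.1% DMSO (n = 3 libraries). Rutaecarpine is an alkaloid of Evodia rutaecarpa, and the sequencing was done to look for migration-related genes that it regulates. The stock was made in DMSO and diluted in serum-free medium, so the treated cells also received 0.1% DMSO. The model is 1 cell line at 1 concentration and 1 time, and nothing in the labels says that the libraries came from separate cultures, so the p values below measure the spread between these libraries, which may be technical. In bulk RNA, fewer cells that express a gene and less RNA of it per cell cannot be told apart.

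Metallothioneins are small, cysteine-rich proteins that bind zinc and copper in clusters and buffer the free metal of the cell. When free zinc rises, MTF1 binds it through its zinc fingers, enters the nucleus and binds metal response elements (MREs) in front of the metallothionein genes and of SLC30A1, so that the bound store and the export of zinc rise together. Metallothionein genes are also known to respond to glucocorticoids and to oxidative stress, and MT2A is the form that most human cells express in quantity.

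The 7 metallothionein genes lie in 76.0 kb of the long arm of chromosome 16, at chr16:56608199-56684196 of GRCh38 (GENCODE release 29), with 1 of them, MT1G, on the minus strand. MT2A is at chr16:56608199-56609497 and MT1X at chr16:56682424-56684196, at opposite ends of that stretch. MTF1 is at chr1:37809567-37859620 and SLC30A1 at chr1:211571568-211578742, both on the minus strand. The reference transcript of each metallothionein gene has 3 exons and 183 coding bases, which make 61 codons, and 20 of these are cysteine codons in each of the 7 genes. The coding sequences are shown for 3 members that behaved differently in the libraries, MT2A, MT1X and MT1F, with the cysteine codons in capitals.
MT2A: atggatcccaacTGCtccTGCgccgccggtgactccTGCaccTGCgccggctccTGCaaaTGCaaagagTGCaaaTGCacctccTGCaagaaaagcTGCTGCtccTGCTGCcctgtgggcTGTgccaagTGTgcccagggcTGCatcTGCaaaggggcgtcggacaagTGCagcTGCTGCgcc
MT1X: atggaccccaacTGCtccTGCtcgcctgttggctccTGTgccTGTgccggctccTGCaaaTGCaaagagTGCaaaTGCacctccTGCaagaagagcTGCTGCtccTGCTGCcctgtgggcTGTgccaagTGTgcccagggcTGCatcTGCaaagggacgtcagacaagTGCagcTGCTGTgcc
MT1F: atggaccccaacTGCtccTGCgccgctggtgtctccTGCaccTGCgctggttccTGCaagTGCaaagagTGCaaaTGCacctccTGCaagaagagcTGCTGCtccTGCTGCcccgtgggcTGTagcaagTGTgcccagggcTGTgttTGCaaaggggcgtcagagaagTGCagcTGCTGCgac
The cysteine codons carry the residues that hold the metal. Over the 21 pairs of the 7 genes, the coding sequences were 88.5% identical (MT1F and MT1X) to 95.1% identical (MT1G and MT2A). MT1X and MT2A were 92.3% identical. The longest run of bases shared by the reference transcripts of a pair was 32 to 96 bases long over the same 21 pairs, the latter between MT1G and MT1X. The authors quantified genes with RSEM, which assigns reads shared by several genes in estimated portions, so the split of reads among these copies is uncertain, most of all for the weakly expressed ones.

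Promoter windows from RefSeq (GRCh38.p14), of 250 bases before and 50 after the start of a gene, were held for 4 of the 9 members, MT2A, MT1X, SLC30A1 and MTF1, and no window was used for MT1A, MT1E, MT1F, MT1G and MT1M. The core of the MRE was searched on both strands as TGCACNC or TGCGCNC. It matched 8 times in the window of MT2A, 4 times in that of MT1X, 2 times in that of SLC30A1 and 0 times in that of MTF1. Of all 35116 windows, 29.6% held at least 1 match, 0.601% held 4 or more and 0.074% held 6 or more. Stretches with the matches are printed because the core recurs in the genes that stand in the results below; MRE cores are in capitals. The MT2A window lies within the longest GENCODE transcript of that gene, which starts 385 bases before the RefSeq start, and is given as the 6 short stretches, on the plus strand, that hold the 7 matches before the RefSeq start.
MT2A chr16:56608334-56608363: ccgcTGCACCCagccccttccgcgccgagg
MT2A chr16:56608412-56608441: gcccGTGTGCAgagccgggTGCGCCCggcc
MT2A chr16:56608441-56608470: ccagTGCGCGCggccgggtgtttcgcctgg
MT2A chr16:56608492-56608521: gggcGTGTGCAggcagcgcccggccggggc
MT2A chr16:56608526-56608555: ctttTGCACTCgtcccggctctttctagct
MT2A chr16:56608572-56608583: gcgcTGCACTCc
The MT1X stretch, on the plus strand, ends at the base before the GENCODE start and holds all 4 matches.
MT1X chr16:56682220-56682423: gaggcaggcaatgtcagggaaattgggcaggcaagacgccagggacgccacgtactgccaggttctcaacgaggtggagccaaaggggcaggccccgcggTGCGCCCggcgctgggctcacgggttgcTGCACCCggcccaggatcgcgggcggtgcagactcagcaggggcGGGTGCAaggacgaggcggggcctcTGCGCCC
The SLC30A1 stretch, on the minus strand and written in the direction of the gene, is the part of the window before the RefSeq start and holds 1 of the 2 matches. The GENCODE start of SLC30A1 lies 419 bases downstream of the RefSeq start, beyond the window.
SLC30A1 chr1:211579162-211579411: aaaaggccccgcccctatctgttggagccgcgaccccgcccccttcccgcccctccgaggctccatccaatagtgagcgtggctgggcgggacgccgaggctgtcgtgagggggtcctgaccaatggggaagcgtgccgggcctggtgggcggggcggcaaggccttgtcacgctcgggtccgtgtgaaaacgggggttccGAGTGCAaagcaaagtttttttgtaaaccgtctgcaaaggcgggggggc
Other motifs were searched in the same windows. The dioxin response element (DRE) core, GCGTG, which the aryl hydrocarbon receptor (AhR) binds, matched 3 times in MT2A, where 2 of the 3 overlapped an MRE core, 2 times in MT1X, 3 times in SLC30A1 and 2 times in MTF1. It matched at least once in 36.5% of all windows. The antioxidant response element core, TGACNNNGC, matched 1 time each in MT2A, MT1X and SLC30A1 and 0 times in MTF1 (13.3% of all windows). A TATA box, TATAAA, was found in MT2A and MT1X only among the 4 (11.5% of all windows). The palindromic glucocorticoid response element had 0 matches in the 4 windows (0.00285% of all windows). A match to this full form is so rare that 0 in 4 windows cannot tell whether these promoters lack such an element. A match to any of these motifs describes the letters and shows no binding.

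Values are given in TPM, in which the reads of a gene are scaled by its length and by the library total. Levels can be compared between genes only as far as the gene lengths hold, and those the authors used are not known. Among the metallothionein copies, the split of shared reads adds to this uncertainty. Read numbers, and so the counting error of a value, are unknown. The groups were compared with limma on log2(TPM + 1), over the 14377 genes that reached 1 TPM in 3 or more libraries, with Benjamini-Hochberg adjustment over all of them. A gene is said to have risen or fallen where its adjusted p did not exceed 0.05, and is called a differentially expressed gene (DEG) where, in addition, the log2 fold change exceeded 1 in size. The treatment left its known trace on CYP1B1, an AhR-induced monooxygenase. CYP1B1 was at 70.0 ± 23.6 TPM (SD, n = 3) in control and 390 ± 47.3 TPM in treated libraries, and its log2 fold change was 2.52 (adjusted p = 0.00191, limma). CYP1A1, another AhR target, was near the filter, at 0 to 0.19 TPM in control and 1.12 to 1.18 TPM in treated libraries. It rose (adjusted p = 0.0113, limma), but the call was lost in 4 of the 6 fits that leave out 1 library. The cell identity was checked by markers. VIM (6974 to 7968 TPM in control), FN1 and CD44 were abundant, GFAP stayed at 3.48 to 5.41 TPM, S100B at or below 0.25 TPM, and CDKN2A, which is deleted in U87, was at 0 in 5 libraries and at 0.06 TPM in 1. VIM, FN1 and NES, 3 of the 5 tested markers, fell after rutaecarpine, as did 4.68% of all tested genes. NES kept its call only without control replicate 3 among the fits that leave out 1 library (adjusted p 0.131 to 0.205 in the others, limma). VIM missed the threshold without rutaecarpine replicate 3 (adjusted p = 0.0526, limma). None of the 8 markers of leukocytes, endothelium, epithelium, oligodendrocytes and neurons passed the filter, and their highest value was 1.61 TPM (MBP). Control replicate 3 stood apart: its median log2(TPM + 1) over the tested genes was 3.56, against 3.81 to 4.00 in the other 5 libraries, with long transcripts of low GC content low in it. For some of the genes that moved without it, values without it are also given.

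Of the 9 members, 8 passed the filter and were tested. After rutaecarpine 2 of the 8 rose, MT2A and MT1X, and none fell by limma. For comparison, 9.29% of all tested genes passed the same threshold, 4.6% with a rise and 4.68% with a fall. At an unadjusted p under 0.05, MT1E was the only further member, and 24.4% of all tested genes passed that mark. The treated libraries lay wholly above the control libraries for 3 of the 8, MT2A, MT1X and MT1E, and wholly below for none. Over all tested genes the groups did not overlap for 33.3%, with the treated libraries above for 19.3%. MT1X was the only DEG among the members, and 3.51% of tested genes were DEGs. The median log2 fold change was 0.42 over the 8 members and 0.08 over all tested genes. Without control replicate 3 these medians were 0.24 and −0.01, the same 2 members rose, and 18.5% of all tested genes passed the threshold.

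**Figure D1:**
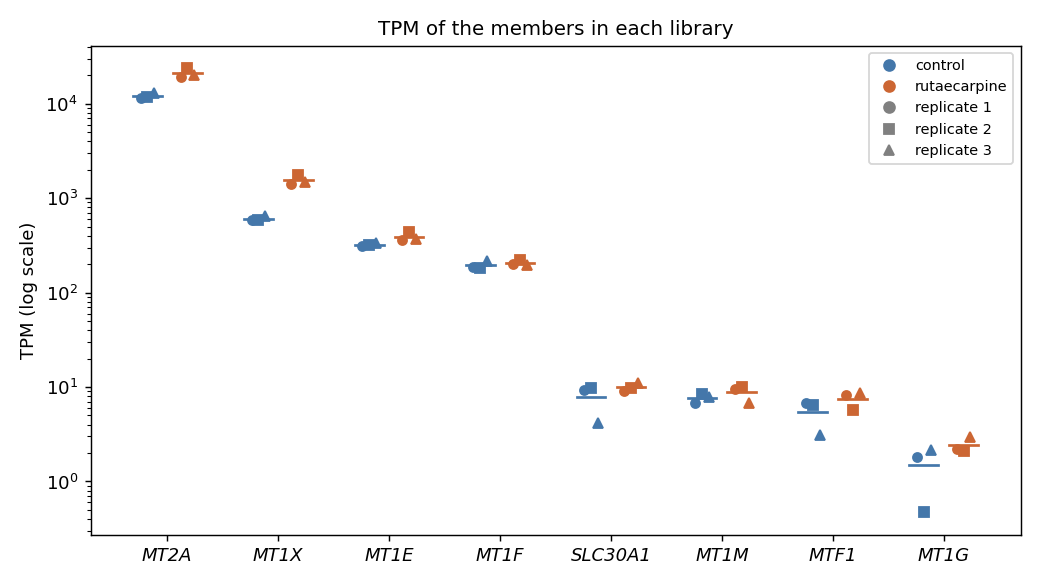
TPM of each member in every library, on a log axis, with control and rutaecarpine libraries as separate points and the group means as lines; MT1A, at 0 in every library, is not drawn. MT2A, MT1X and MT1E sit higher in all 3 rutaecarpine libraries, while the groups overlap for MT1F, MT1M, MT1G, MTF1 and SLC30A1.

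MT2A, the main human metallothionein, was the most abundant member by far. Its level was 11545, 11712 and 13016 TPM in the control libraries, and 19054, 23788 and 20375 TPM in the rutaecarpine libraries. The treated libraries did not overlap with the control libraries, and rutaecarpine replicate 2 was the highest. By TPM, MT2A ranked between 4 and 5 among all genes in the control libraries and between 2 and 3 in the treated ones. The means were 12091 ± 806 and 21072 ± 2443 TPM (SD, n = 3 each), a 1.74-fold difference. The log2 fold change was 0.80, with a standard error of 0.11, a 95% interval of 0.53 to 1.07 and an adjusted p of 0.00662 (limma). This call was lost when the libraries were centred on their medians (log2 fold change 0.70, adjusted p = 0.176). It was also lost when weak genes were not filtered out (0.80, adjusted p = 0.0673) and with the replicate number as a block (0.80, adjusted p = 0.055, limma). The adjusted p was at most 0.0415 whichever library was left out.

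MT1X, another metal-binding isoform, rose more. It was at 592, 580 and 653 TPM in control libraries, and at 1403, 1769 and 1483 TPM after rutaecarpine. The lowest treated library was well above the highest control library. MT1X moved from rank 211 to 228 among all genes into rank 76 to 94. Its means were 608 ± 39.2 and 1552 ± 193 TPM (SD, n = 3 each), a 2.55-fold difference, with a log2 fold change of 1.34, a standard error of 0.11, a 95% interval of 1.09 to 1.59 and an adjusted p of 0.000771 (limma). It was called in each of the 16 alternative fits, with log2 fold changes of 1.25 to 1.44 and adjusted p values up to 0.0137.

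MT1E and MT1F, both well expressed, moved less. MT1E was at 310, 320 and 339 TPM in control and at 362, 443 and 367 TPM after rutaecarpine. The treated libraries lay above the control ones by a small margin, and replicate 2 was again the highest of them. The difference was 1.21-fold, with a log2 fold change of 0.27, a 95% interval of 0.04 to 0.50 and an adjusted p of 0.153 (limma), so MT1E did not pass the test. It passed in 2 of the 16 alternative fits, with the correction for length and GC content (adjusted p = 0.0284) and with library weights (adjusted p = 0.0293, limma). MT1F was at 184, 183 and 215 TPM in control and at 201, 220 and 194 TPM in treated libraries. These groups overlapped. Its log2 fold change was 0.08, with an interval of −0.15 to 0.31 (adjusted p = 0.641, limma), and came to −0.01 with centred libraries.

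The other metallothionein members were weak or listed at 0. MT1M was at 6.79, 8.41 and 7.80 TPM in control and at 9.58, 9.95 and 6.81 TPM after treatment. The groups overlapped, and the log2 fold change of 0.16 did not pass the test (interval −0.27 to 0.60, adjusted p = 0.625, limma). MT1G was at 1.83, 0.47 and 2.13 TPM in control and at 2.22, 2.11 and 2.95 TPM in treated libraries. These also overlapped, since treated replicate 2 was below control replicate 3. For MT1G the log2 fold change was 0.53 (interval −0.20 to 1.26, adjusted p = 0.344, limma). MT1A was listed at 0 in all 6 libraries and was not tested. In both groups the mean levels were ordered MT2A, MT1X, MT1E, MT1F, MT1M, MT1G, and the libraries of neighbours in that order did not overlap within either group.

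**Figure D2:**
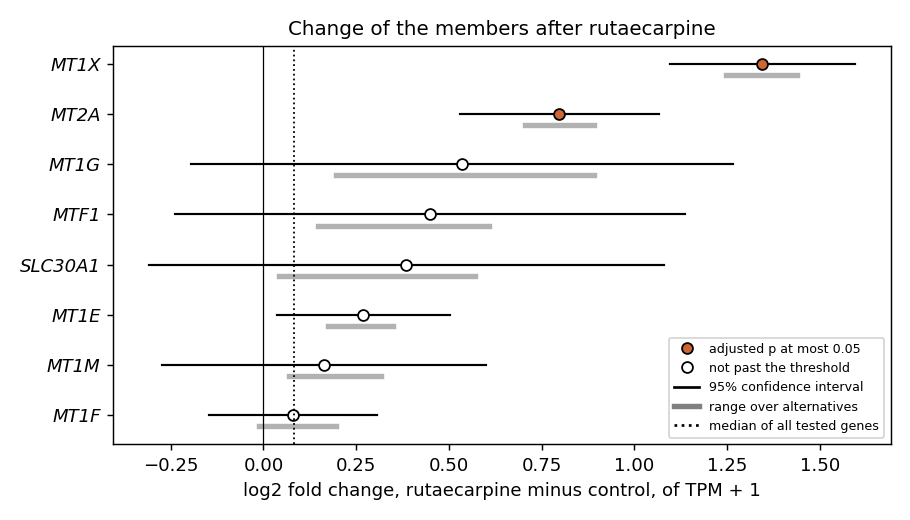
Log2 fold change (rutaecarpine against control, on log2(TPM + 1)) of the 8 tested members, with points for the estimate and bars for the 95% interval, beside the range over the alternative fits. MT1X (1.34) and MT2A (0.80) are the members that passed the test.

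The ratios between the 4 metallothioneins of highest level differed between the groups. The log2 ratio of MT2A to MT1X was 4.29, 4.34 and 4.32 in control libraries and 3.76, 3.75 and 3.78 in treated libraries. Within a group this ratio was nearly the same in each library (SD of 0.025 and 0.016), and between groups it fell by 0.55, which is a 1.46-fold shift towards MT1X. The ratio of MT1X to MT1F rose 2.40-fold, that of MT1X to MT1E 2.11-fold, that of MT2A to MT1F 1.64-fold and that of MT2A to MT1E 1.44-fold. The ratio of MT1E to MT1F rose 1.14-fold. In all 6 pairs compared the groups did not overlap. The 6 pairs come from 4 genes and are not independent, and no share over other gene pairs was computed. Taken singly, MT2A, MT1X and MT1E did not overlap either, as held for 33.3% of all tested genes. The exact permutation test (two-sided) gave p = 0.1 for each pair, also after adjustment over the 6 pairs, which is the smallest p that 3 libraries against 3 allow, so p < 0.05 cannot be reached. A ratio within a library does not depend on how libraries are scaled. It can still depend on transcript length, GC content and the split of shared reads. The trend on length and GC content placed control replicate 3 higher by 0.21 (log2) at MT2A and lower by 0.045 at MT1X. With that correction the log2 fold changes were 0.88 for MT2A and 1.36 for MT1X.

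A sum over the copies is less exposed to the division of shared reads than a single copy is. The TPM of the 7 metallothionein genes summed to 12639, 12803 and 14233 in control libraries and to 21031, 26233 and 22428 after rutaecarpine. All 3 treated sums were above all control sums. The means were 13225 ± 876 and 23231 ± 2692 TPM (SD, n = 3 each), 1.76-fold apart, or 1.33% ± 0.085 and 2.34% ± 0.27 of all TPM. No test was made of this sum. MT2A made up 91.4% ± 0.070 of the sum in control and 90.7% ± 0.12 in treated libraries. MT1X went from 4.60% ± 0.076 to 6.68% ± 0.066. MT1E went from 2.44% ± 0.060 to 1.68% ± 0.043, and MT1F from 1.46% ± 0.042 to 0.886% ± 0.060. So the shares of MT1E and MT1F were lower after rutaecarpine although their levels were not.

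**Figure D3:**
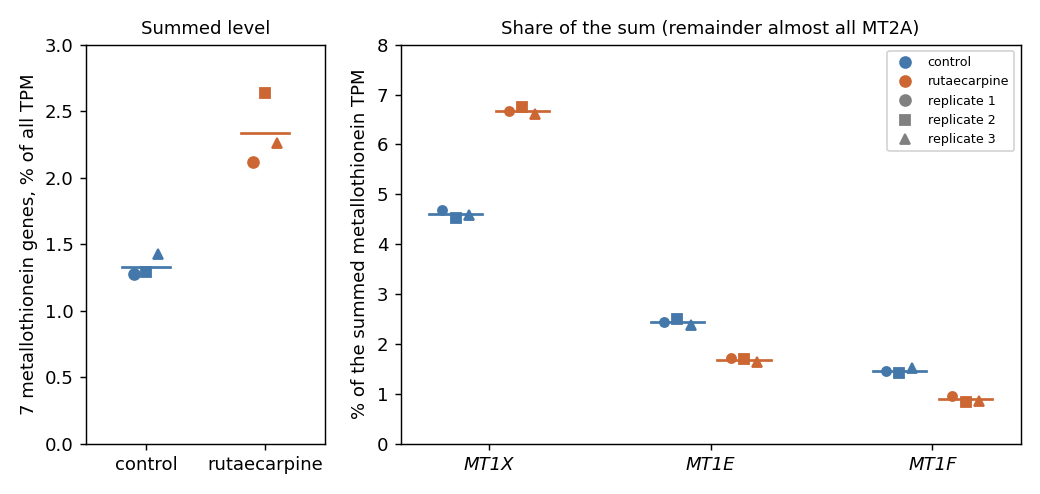
Left, summed TPM of the 7 metallothionein genes as a percent of all TPM, and right, the percent of that sum from MT1X, MT1E and MT1F, with a point per library and a line at each group mean. The sum goes from a mean of 1.33% to 2.34% of all TPM, and in every rutaecarpine library the share of MT1X is higher and those of MT1E and MT1F are lower than in the control libraries.

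MTF1, the sensor, was weakly expressed. It was at 6.71, 6.50 and 3.07 TPM in control and at 8.24, 5.76 and 8.57 TPM after rutaecarpine. The low value was that of control replicate 3, and the groups overlapped. Its log2 fold change was 0.45 (interval −0.24 to 1.14, adjusted p = 0.393, limma), and 0.15 (adjusted p = 0.633) without control replicate 3. SLC30A1, the exporter of zinc across the plasma membrane and an established MTF1 target, was at 9.37, 9.82 and 4.20 TPM in control and at 9.04, 9.78 and 11 TPM after rutaecarpine. Apart from control replicate 3, the values of both groups were close together. The log2 fold change was 0.38 (interval −0.31 to 1.08, adjusted p = 0.467, limma), and 0.04 (adjusted p = 0.861) without that library. The interval includes a fall as well as a rise, so these data bound the response of SLC30A1 only loosely. The trend on transcript length and GC content placed control replicate 3 lower by 0.66 (log2) at the length of SLC30A1 and by 0.54 at that of MTF1, and higher by 0.21 at MT2A. Without control replicate 3, MT2A (log2 fold change 0.85, adjusted p = 0.00161) and MT1X (1.40, adjusted p = 0.0002) kept their calls in limma.

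Other metallothionein genes and pseudogenes numbered 14. Of these, 10 were listed at 0 in every library, MT1H was below the filter and 3 were tested. None of the 3 passed by limma, and 1, MT3, had an unadjusted p under 0.05 (24.4% of all tested genes). MT3, the brain metallothionein, was at 9.85, 14.4 and 14.9 TPM in control and at 6.84, 9.86 and 7.34 TPM after rutaecarpine. Treated replicate 2 and control replicate 1 were nearly level, so the groups overlapped by 0.01 TPM. The log2 fold change was −0.64 (interval −1.14 to −0.14, adjusted p = 0.122, limma), opposite in sign to that of MT2A and MT1X. Among the alternative fits, MT3 passed only with library weights (adjusted p = 0.0191) and with the length and GC correction plus the replicate block (0.0404, limma). MT1L, a transcribed pseudogene between MT2A and MT1E, was at 166, 158 and 191 TPM in control and at 170, 234 and 165 TPM in treated libraries, with overlap (log2 fold change 0.13, adjusted p = 0.629, limma). Adding these 14 genes to the sum gave a ratio of 1.75.

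The other zinc transporters were read against the same test. Of 10 further genes of zinc export and compartment loading, 5 were tested. None rose and 1 fell (4.6% and 4.68% of all tested genes). That gene, SLC30A10, is known mainly as a manganese exporter. It was at 3.16, 2.22 and 1.79 TPM in control and at 0.77, 0.67 and 1.07 TPM after rutaecarpine. All treated libraries were lower (log2 fold change −0.87, adjusted p = 0.0472, limma), at levels near the filter. The call was lost when any library other than control replicate 3 was left out (adjusted p 0.113 to 0.163, limma). SLC30A7, which loads the Golgi with zinc, was at 11.2, 10.8 and 6.79 TPM in control and at 14.1, 11.9 and 14.6 TPM in treated libraries. The groups did not overlap, but the log2 fold change of 0.48 missed the threshold (interval −0.01 to 0.97, adjusted p = 0.216, limma) and was 0.27 without control replicate 3. SLC30A9, SLC30A5 and SLC30A6 had means of 13.8 to 67.7 TPM, with log2 fold changes of 0.04 to 0.29 and groups that overlapped. Without control replicate 3, SLC30A6 went from 0.29 to 0.01, SLC30A9 from 0.25 to −0.06 and SLC30A5 from 0.04 to −0.17. The median over the 5 tested genes was 0.25 with that library and −0.06 without it.

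Of 14 zinc importers (SLC39A1 to SLC39A14), 11 were tested, and none passed by limma. At an unadjusted p under 0.05 there was 1, SLC39A8, against 24.4% of all tested genes. Their median log2 fold change was −0.03, against 0.08 over all tested genes. SLC39A14, a zinc, iron and manganese importer, had the highest level among them, at 322, 311 and 174 TPM in control and 305, 258 and 314 TPM after rutaecarpine. The groups overlapped, with the low value again in control replicate 3 (adjusted p = 0.695, limma). SLC39A7, which releases zinc from the endoplasmic reticulum, was at 140 ± 7.92 and 144 ± 4.00 TPM, and SLC39A13 at 109 ± 3.15 and 107 ± 1.18 TPM (SD, n = 3 each). SLC39A8, a plasma membrane importer of zinc and manganese, was at 35.6, 31.7 and 20.2 TPM in control and at 18.6, 17.2 and 20.1 TPM after rutaecarpine. The treated libraries lay below the control ones, narrowly so for control replicate 3. Its log2 fold change was −0.58 (interval −1.08 to −0.08, adjusted p = 0.147, limma). SLC39A8 passed as a fall with centring on medians (adjusted p = 0.0188), the length and GC correction (0.00271) and library weights (0.00112, limma). It also passed with that correction and the replicate block (0.0206), and missed the threshold in the other fits that kept all 6 libraries. Without control replicate 3, SLC39A8 (adjusted p = 0.00268) and SLC39A10 fell among the importers, and SLC30A10 was still the only exporter called. That makes 2 of 11 importers and 1 of 5 exporters, in a fit where 18.5% of all tested genes passed. With all 6 libraries, the remaining 7 tested importers (SLC39A1, SLC39A3, SLC39A4, SLC39A6, SLC39A9, SLC39A10 and SLC39A11) had log2 fold changes of −0.27 to 0.42. Leaving out control replicate 3 moved SLC39A10 from −0.16 to −0.62 (adjusted p = 0.0204, limma) and SLC39A6 from 0.42 to 0.08.

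**Figure D4:**
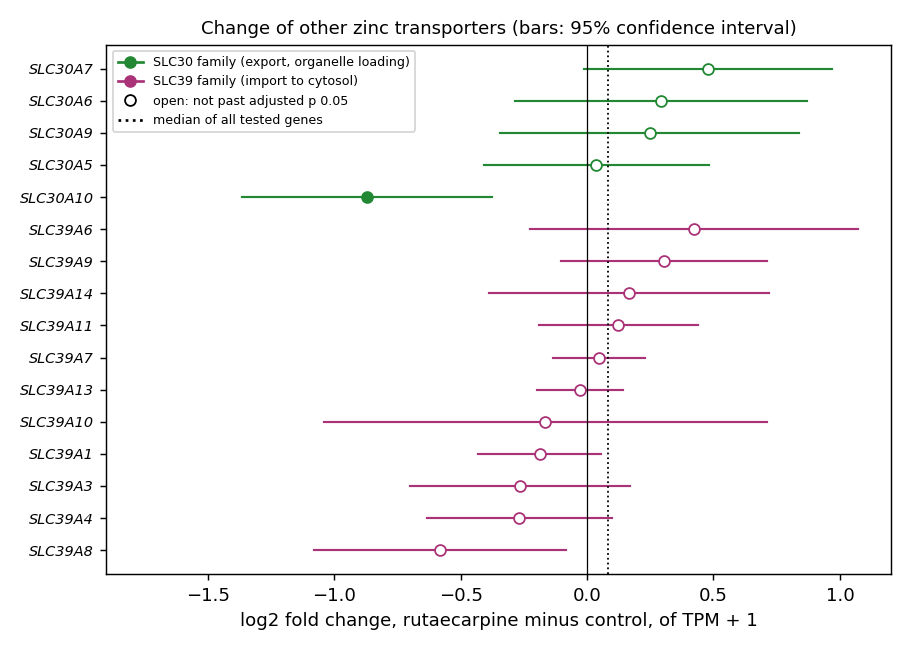
Log2 fold change (rutaecarpine against control, on log2(TPM + 1)) of the tested zinc exporters and importers, with points for the estimate and bars for the 95% interval. SLC30A10 (−0.87) is the transporter that passed the test, and of the other intervals only that of SLC39A8 excludes 0.

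Metallothioneins also bind copper. Of 8 genes of copper handling, 7 were tested and none passed by limma, with 3 at an unadjusted p under 0.05 (24.4% of all tested genes). SLC31A1, the copper importer, was at 26.5, 25.5 and 18.4 TPM in control and at 33.3, 28.3 and 37.0 TPM after rutaecarpine (log2 fold change 0.48, adjusted p = 0.146). SLC31A2, a related transporter, was at 11.2 ± 0.59 and 14.7 ± 0.60 TPM (SD, n = 3 each), with a log2 fold change of 0.36 (adjusted p = 0.131). CCS, the copper chaperone of superoxide dismutase, was at 68.7 ± 4.66 and 57.6 ± 1.60 TPM (log2 fold change −0.25, adjusted p = 0.143). The groups did not overlap for these 3, with SLC31A1 and SLC31A2 higher and CCS lower after treatment. They did not overlap for 33.3% of all tested genes either. CCS passed the test without control replicate 3 (adjusted p = 0.0325, limma), as did 18.5% of all tested genes in that fit. SOD1, ATOX1 and COX17 overlapped between groups.

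Among 4 other genes reported as MTF1 targets, GCLC rose and the others did not pass the test. Over all tested genes, 4.6% rose. GCLC, the catalytic subunit of the enzyme that limits glutathione synthesis, was at 17.2, 16.1 and 9.90 TPM in control and at 27.0, 24.2 and 27.7 TPM after rutaecarpine. The groups did not overlap. The test gave a log2 fold change of 0.86 and an adjusted p of 0.0483 (limma), close to the threshold. Leaving out any library other than control replicate 3 raised the adjusted p to between 0.0612 and 0.183, and leaving that one out lowered it to 0.00663. SELENOH, SELENOW and TXNRD2, which encode selenoproteins, had log2 fold changes of 0.28, 0.01 and 0.05.

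Of 8 glucocorticoid-responsive genes, ZBTB16 was at 0 in every library, 7 were tested, 2 rose and 1 fell. Over all tested genes, 4.6% rose and 4.68% fell in the same fit. KLF9, a transcription factor, was at 4.42, 5.66 and 3.10 TPM in control and at 10.9, 9.15 and 11.1 TPM after rutaecarpine (log2 fold change 1.10, adjusted p = 0.0221, limma). DUSP1, a phosphatase of MAP kinases, was at 57.2, 47.8 and 50.5 TPM in control and at 87.02, 78.3 and 91.0 TPM after treatment (log2 fold change 0.71, adjusted p = 0.00776, limma). The call of DUSP1 was lost by a small margin without rutaecarpine replicate 3 (adjusted p = 0.051, limma), and that of KLF9 without control replicate 1 or any one rutaecarpine library (adjusted p 0.0676 to 0.108). FKBP5, a co-chaperone of the glucocorticoid receptor, moved the other way, from 3.84, 4.34 and 1.86 TPM to 1.04, 0.85 and 0.81 TPM (log2 fold change −1.15, adjusted p = 0.0397, limma). Its call was lost without any 1 library other than control replicate 3 (adjusted p 0.117 to 0.152). TSC22D3 (0.64, adjusted p = 0.0599) and NR3C1, the receptor itself (0.95, adjusted p = 0.138), were higher in all treated libraries but missed the threshold, and both passed it without control replicate 3, where 4 of the 7 rose and 1 fell and the log2 fold change of NR3C1 was 0.53. In that fit 18.5% of all tested genes passed. PER1 and SGK1 did not pass in either fit.

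Genes whose pattern was most like the metallothionein sum were ranked by Pearson's r with the log2 of that sum over the 6 libraries, as a description only, since 2 groups of libraries make up most of the variation. The 5 highest were KRT78 (r = 0.9975), SELENOS (0.9968), SLC50A1 (0.9958), MPC2 (0.9955) and BTG1 (0.9946), and 18 genes had r above 0.99. SELENOS, a selenoprotein of the endoplasmic reticulum membrane, was at 90.3 TPM in control and 132 TPM in treated libraries on average. KRT78 was near the filter, at 0.943 and 2.76 TPM.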

How the data were processed

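RNA-Seq of U87 cells was analysed in 3 control and 3 rutaecarpine libraries, grouped by the sample labels. Sequencing by the authors was on an Illumina NovaSeq, and RSEM gave the gene levels. The authors deposited TPM, 1 column per library, and 0 columns were left unmatched. The submitters' processing notes name GRCh38.p13. The aligner, the annotation release and any filter are not given in the sources used here. For their own list of DEGs, the authors name DESeq2, DEGseq and edgeR. TPM keeps no read numbers, so depth and counting error are unknown and tests for read counts were not used.

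TPM were transformed to log2(TPM + 1), with a pseudocount of 1. A gene was tested where 3 or more libraries reached 1 TPM. The test was that of limma (version 3.58.1, R 4.3.3; mean-variance trend, two-sided), without normalization between libraries or a replicate block, with Benjamini-Hochberg adjustment over all 14377 genes. Fold changes on this scale understate the change of weak genes. Ratios between members were compared with an exact permutation test. Transcripts and positions came from GENCODE release 29 (GRCh38) and promoters from RefSeq (GRCh38.p14). Coding sequences were compared because no protein sequences were used here. Other steps used Python 3.11.15 with scipy 1.17.1, pandas 2.3.3, matplotlib 3.10.9 and numpy 2.4.6.

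The members and the lists were chosen with earlier results of these data known. The genes named are the members, the list genes that passed the test or averaged 10 TPM or more in 1 of the groups, the 3 zinc transporters of highest level, CYP1B1 and CYP1A1 (which rose by 0.99 on the log2 scale, adjusted p = 0.0113, limma, and up to 0.0545 with 1 library left out), and the 5 genes most like the metallothionein sum. MT1H and ZBTB16 are named beside counts, and GFAP, S100B, CDKN2A and MBP as markers of cell identity. The alternatives were centring on medians, no trend, other filters and pseudocount, a replicate block, corrections for length and GC content (natural splines, 5 degrees of freedom, 14267 genes), library weights, and each library left out. Leaving out control replicate 3 with centring was added after seeing the data.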

Additional observations from a re-analysis of the deposited data

How the results depend on the processing

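MT1X kept its direction and its call in each of the 16 alternative fits, and MT2A kept its direction in each of them and its call in 13. The count of members past the threshold (2) was 1, MT1X, with centred libraries (MT2A adjusted p = 0.176), with no filter on low TPM (0.0673) and with the replicate number as a block (0.055, limma). It was 3 with the length and GC correction and with library weights, where MT1E also passed. The main fit had no block. Same-numbered libraries did not deviate together (r of 0.116, −0.266 and −0.215), and no library correlated best with its own number. Control replicate 3 dominates the deviations within the control group, so these correlations cannot tell whether the libraries were paired. The fit with the block gave 428 genes past the threshold and 318 DEGs, against 1335 and 505. The genes past the threshold numbered 2915 with the correction for length and GC content, 3962 with library weights, 2802 without control replicate 3 with centring, and 539 to 2666 with 1 library left out (2666 without control replicate 3). The share of these calls that were rises was 49.6%, and it lay between 43.0% with centring and 55.7% without control replicate 1. The ratio of the metallothionein sum stayed within the spread of the libraries in the alternatives tried for it. The sum was not fitted, so the trend, the block and the library weights do not act on it, and its stability says little.

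Over 49 genes and 16 alternatives, 780 log2 fold changes were computed, of which 662 kept direction and side of the threshold, 52 lost the call, 33 gained one and 33 changed sign. All of the last belonged to genes that had not passed the test. With centring, MT1F came to −0.013, SLC30A5 to −0.055, SLC39A7 to −0.046, ATOX1 to −0.011, COX17 to −0.035, SELENOW to −0.079 and TXNRD2 to −0.039. SLC30A5 was at −0.160 with the length and GC correction (−0.160 with the block as well) and at −0.180 with library weights, where SLC39A14 was at −0.045. Without control replicate 3 and with centring, SLC30A5 was at −0.125, SLC30A9 at −0.017, SLC39A14 at −0.079, SLC39A13 at 0.036 and CD44 at −0.0098. With 1 library left out, the log2 fold change ranged from −0.030 to 0.220 for MT1L, −0.165 to 0.170 for SLC30A5, −0.058 to 0.420 for SLC30A9, −0.620 to 0.101 for SLC39A10, −0.120 to 0.320 for SLC39A14, −0.0083 to 0.250 for ATOX1, −0.0047 to 0.167 for COX17, −0.031 to 0.094 for SELENOW, −0.014 to 0.120 for TXNRD2 and −0.050 to 0.428 for CD44. The cause of these shifts was not tested. Depth is unknown, so counting error at the level of MT1G or SLC30A10 could not be given.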
